A study of Rattus norvegicus with 6 samples.

Results

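The genes followed here were 10 names of acute inflammation and macrophage polarization: Il1a, Il1b, Il1rn, Tnf, Il10, Nos2, Arg1, Ptgs2, S100a8 and S100a9. They were taken by gene name from the deposited gene table, which lists 30957 genes of the rat sciatic nerve. A row was found for 9 of the 10 names, Tnf had 2 rows, and Nos2 was not analysed here under that name, so 10 rows were followed. Of these, 6 rows passed the low-count filter and were among the 15195 genes tested: Il1a, Il1b, Il1rn, 1 row of Tnf, Arg1 and Ptgs2. The other Tnf row, Il10, S100a8 and S100a9 were too low to test and are given as counts.

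RNA was sequenced from the sciatic nerves of 1-month-old Sprague-Dawley rats, with 2 rats and so 2 libraries, a and b, in each of 3 groups. The D4 and D7 groups were sampled 4 and 7 days after the left sciatic nerve was crushed with hemostatic forceps. The control rats were operated on without the clamp according to the study's methods and are labelled as normal controls. No transgene or allele is named for any group. The libraries were made from total RNA of whole nerve after ribosomal RNA was removed, so every level below is an average over all cells of the tissue, in which fewer cells of a type and less RNA per cell cannot be told apart.

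IL-1alpha and IL-1beta are the ligands of the IL-1 receptor, and Il1rn encodes a secreted antagonist that occupies the same receptor without signalling. TNF is the other early cytokine of injured nerve, IL-10 damps macrophage activation, and Ptgs2 encodes the inducible cyclooxygenase of prostaglandin synthesis. Inducible nitric oxide synthase (Nos2) and arginase 1 (Arg1) use the same amino acid, arginine, and are widely taken as marks of classically and alternatively activated macrophages, while S100a8 and S100a9 encode the subunits of calprotectin, abundant in neutrophils and monocytes. After a nerve is crushed, Schwann cells of the distal stump release cytokines, and monocytes enter to clear myelin.

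The libraries held 18727255 to 25350886 fragments counted on genes. Macrophage and monocyte markers summed to 540 to 618 CPM (fragment counts scaled to library size with trimmed-mean factors) in control, 2600 to 2690 in D4 and 1950 to 2260 in D7, and all 11 Schwann cell markers passed the low-count filter. Library D7 a stood apart for several genes below and also for other tissue markers. Its red blood cell markers summed to 53.1 CPM against 361 in D7 b, and its adipocyte markers to 52.7 CPM against 669. In D4 a the skeletal muscle markers summed to 81.6 CPM against 6.87 in D4 b. The D7 results of Il1b and Il1a and the count of members called on D7 are therefore given with and without it. The D7 calls against control in the gene lists are given only with it.

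The sequence before the start of the ligand genes Il1a and Il1b and of the antagonist gene Il1rn is shown, as RefSeq gives it on the GRCr8 build. It is the reference sequence and not that of the sampled rats, so it says nothing of differences between libraries. Each line holds the 250 bases that precede the transcription start, 5′ to 3′ on the gene's strand. They lie at chr3:136990018-136990267 on the minus strand for Il1a, chr3:137036582-137036831 on the minus strand for Il1b and chr3:27520072-27520321 on the plus strand for Il1rn. Capitals mark matches, on either strand, to TATAAA, to the AP-1 motif TGANTCA and to the C/EBP motif TTNNNCAA.
Il1a: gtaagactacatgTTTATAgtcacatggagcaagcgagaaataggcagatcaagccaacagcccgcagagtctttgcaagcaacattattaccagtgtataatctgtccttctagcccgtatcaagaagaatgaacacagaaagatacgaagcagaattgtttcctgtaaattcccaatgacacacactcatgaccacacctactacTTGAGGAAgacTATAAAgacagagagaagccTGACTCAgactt
Il1b: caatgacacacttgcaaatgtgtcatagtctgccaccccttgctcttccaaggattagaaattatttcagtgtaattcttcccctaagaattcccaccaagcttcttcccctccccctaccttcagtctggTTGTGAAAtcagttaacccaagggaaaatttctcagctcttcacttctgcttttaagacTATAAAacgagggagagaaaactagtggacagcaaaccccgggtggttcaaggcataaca
Il1rn: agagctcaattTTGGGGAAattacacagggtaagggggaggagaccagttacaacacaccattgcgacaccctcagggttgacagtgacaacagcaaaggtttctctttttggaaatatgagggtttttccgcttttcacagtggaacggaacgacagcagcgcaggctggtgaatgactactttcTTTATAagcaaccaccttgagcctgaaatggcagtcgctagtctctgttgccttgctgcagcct
None of the marked matches overlap, and positions count back from -1, the last base before the start. In Il1a TATAAA lay at -32 to -27 and again, on the opposite strand, at -237 to -232, with a C/EBP match at -43 to -36 and an AP-1 match at -12 to -6. In Il1b TATAAA lay at -60 to -55 and a C/EBP match at -119 to -112. In Il1rn TATAAA lay on the opposite strand at -64 to -59, and a C/EBP match at -239 to -232. Of the 250 bases before the start of all 33469 RefSeq promoters, 12.9% held TATAAA, 6.34% the AP-1 motif and 33.8% the C/EBP motif. The CRE motif TGACGTCA (1.59% of these windows), the NF-kB motif (16.4%) and the GAS motif TTCNNNGAA (7.67%) had no match there in these 3 genes. A match describes the letters and is not evidence of a bound factor. RefSeq windows were matched for 6 of the names (Il1a, Il1b, Il1rn, Tnf, Ptgs2 and S100a9).

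Il1rn was the only member called higher on both days. A gene was called when edgeR's quasi-likelihood test gave a Benjamini-Hochberg adjusted p under 0.05 over all genes tested and the fold change was at least 2. On D4, 1 of the 6 tested members was called (Il1rn), where 21.9% of all tested genes were called and 11.2% were called higher. On D7, 2 of 6 were called (Il1b and Il1rn), both higher, where 18.8% of all tested genes were called and 9.83% were called higher. Without library D7 a, 1 of 7 tested members was called on D7 (Il1rn), where 14.6% of all tested genes were called and 8.47% were called higher. Between D7 and D4, 0 of 6 were called where 2.18% of all genes were (1.68% higher and 0.494% lower), with 2 members (Il1b and Arg1) at an unadjusted p under 0.05 in edgeR and 0 called and 1 under 0.05 in DESeq2. Both comparisons with control use the same control libraries. The remaining 4 rows had too few counts to enter these counts.

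**Figure D1:**
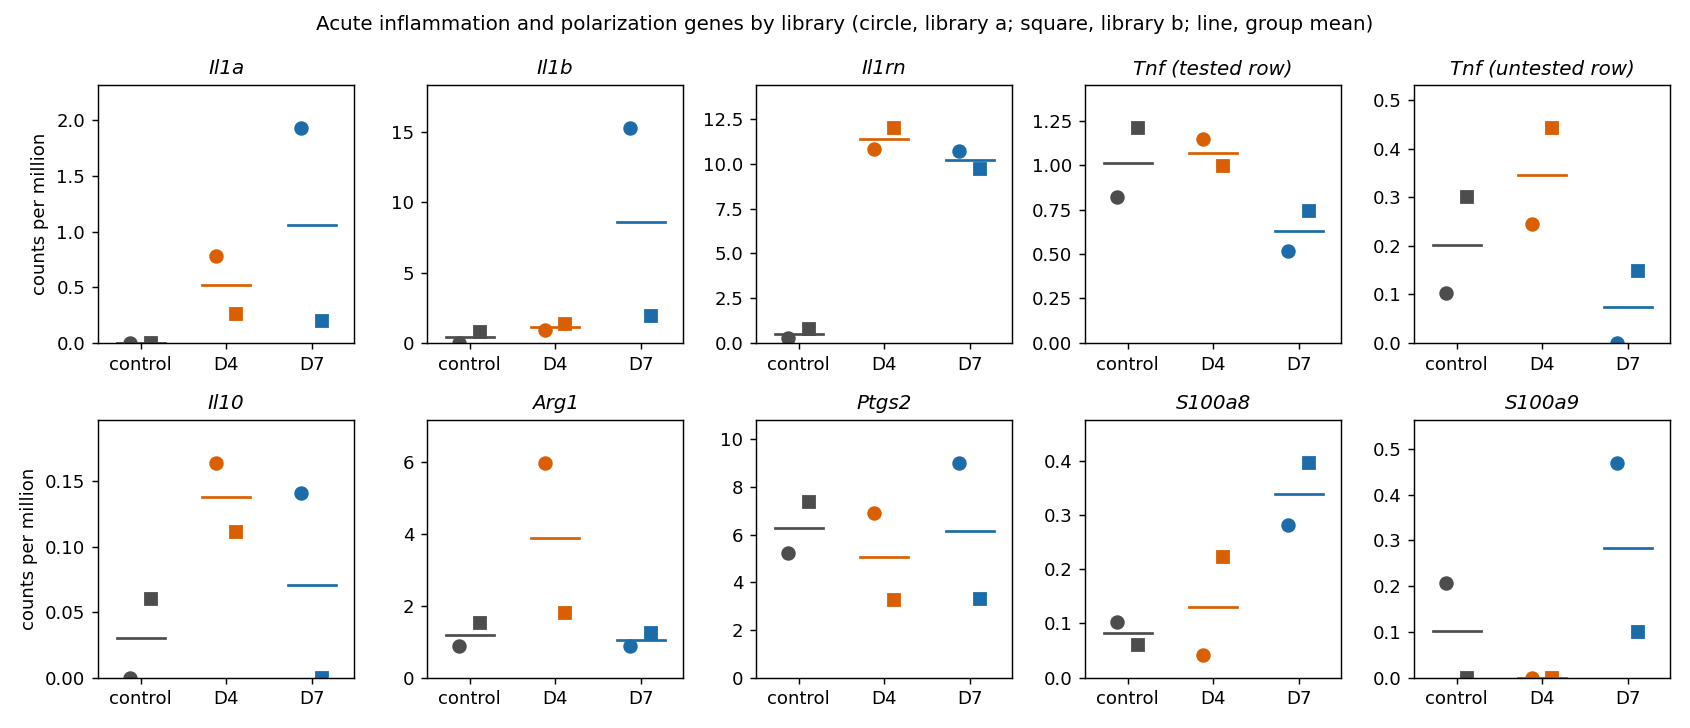
CPM (linear axes from 0, scaled with trimmed-mean factors) of the 10 member rows in control, D4 and D7; circles are library a, squares library b and lines group means of 2 rats. Il1rn sits between 9.7 and 12 CPM in the 4 injured libraries and under 1 CPM in control, while Il1b reaches 15.3 CPM in D7 a alone and Arg1 5.99 CPM in D4 a alone.

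**Figure D2:**
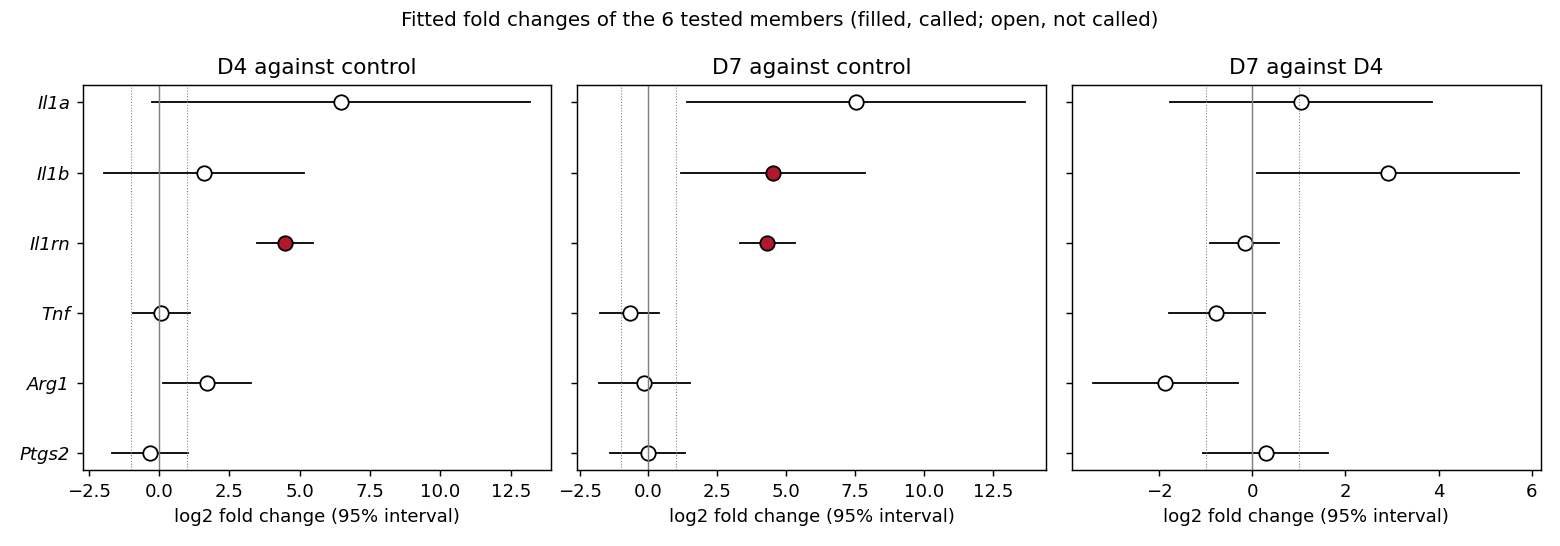
Fitted log2 fold changes (points) with 95% intervals (lines) of the 6 tested members in the 3 comparisons; filled points were called, dotted lines mark a 2-fold change and the x axes differ in range. Il1rn has the shortest intervals in both comparisons with control, and the Il1a values against control are set by 0 counts in both control libraries and are no bound.

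Il1rn, the IL-1 receptor antagonist (ENSRNOG00000005871, 3:1452644-1468614 on Rnor_6.0), had 5 and 13 counts in control a and b, 263 and 326 in D4 a and b, and 228 and 196 in D7 a and b. Every injured library lay far above both control libraries, and the libraries of each injured group lay close together. In CPM the level was 0.521 ± 0.372 in control, 11.4 ± 0.882 on D4 and 10.2 ± 0.713 on D7 (SD, n = 2 each). The log2 fold change was 4.48 on D4 (SE 0.40, 95% interval 3.49 to 5.47, edgeR quasi-likelihood adjusted p = 0.000519), a 22.3-fold rise. On D7 it was 4.32 (SE 0.41, interval 3.33 to 5.31, edgeR adjusted p = 0.000903), a 19.9-fold rise. D7 against D4 gave a log2 fold change of -0.16 with an interval of -0.90 to 0.57 (edgeR adjusted p = 0.787). The ratio of D7 a to D7 b was 1.10 (95% counting interval 0.908 to 1.34).

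Il1b (ENSRNOG00000004649, 3:121876263-121882726) had 0 and 13 counts in control a and b, 22 and 37 in D4 a and b, and 325 and 39 in D7 a and b. D7 a was far above every other library, whereas D7 b lay close to D4 b. In CPM this was 0 and 0.784 in control, 0.903 and 1.37 in D4, then 15.3 and 1.93 in D7. On D4 the log2 fold change was 1.60 (SE 1.46, interval -1.95 to 5.16, edgeR adjusted p = 0.406), so no rise of IL-1beta mRNA was resolved although the D4 libraries lay above both control libraries. On D7 it was 4.51 (SE 1.37, interval 1.17 to 7.86, edgeR adjusted p = 0.0447), a 22.9-fold rise that was called. Without D7 a the D7 value was 2.38 (SE 1.27, edgeR adjusted p = 0.232) and was not called, and the call was also lost without control a (3.45, edgeR adjusted p = 0.125) and without D4 a or D4 b (4.51 in both, edgeR adjusted p = 0.0841 and 0.0843). D7 against D4 gave 2.91 (SE 1.16, interval 0.09 to 5.73, edgeR adjusted p = 0.191) with D7 a and 0.75 (SE 1.16, edgeR adjusted p = 0.812) without it.

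Il1a, the other ligand (ENSRNOG00000004575, 3:121825412-121836086, beside Il1b), had 0 counts in both control libraries, 19 and 7 in D4 a and b, and 41 and 4 in D7 a and b. It was detected in each of the 4 injured libraries and in neither control library, with most of its D7 counts in D7 a. Against a floor of 3 counts per control library, Il1a was at least 3.10-fold higher on D4 and at least 6.33-fold higher on D7, and at least 1.18-fold higher on D7 without D7 a. It was not called on D4 (edgeR adjusted p = 0.102) or on D7 (edgeR adjusted p = 0.0617), whereas DESeq2 called it on both days (adjusted p = 0.0146 and 0.0036). D7 against D4 gave a log2 fold change of 1.05 (SE 1.10, edgeR adjusted p = 0.614), and without D7 a it was -1.36 (SE 1.18, edgeR adjusted p = 0.653).

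The 3 IL-1 genes were compared by length with the deposited FPKM (counts scaled by gene length and library total, without the trimmed-mean factors). Il1rn FPKM was 0.109 and 0.34 in control, 5.64 and 6.3 in D4, then 5.58 and 5.13 in D7. Il1b FPKM was 0 and 0.497 in control, 0.689 and 1.05 in D4, then 11.6 and 1.49 in D7, and Il1a FPKM did not exceed 1.16 in any library. Il1rn mRNA therefore exceeded Il1b mRNA 8.18-fold and 6.03-fold in D4 a and b and 3.44-fold in D7 b. In D7 a it stood at 0.48 of the Il1b mRNA level. In control b the ratio was 0.684, from 13 counts of each gene. Il1b mRNA exceeded Il1a mRNA 1.46-fold and 6.67-fold in D4 a and b, and 10-fold and 12.3-fold in D7 a and b. The ratio between the ligand mRNAs was close in both D7 libraries, from 4 counts of Il1a in D7 b, while their ratio to Il1rn mRNA differed. These ratios describe single libraries, and no test was made of them.

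**Figure D3:**
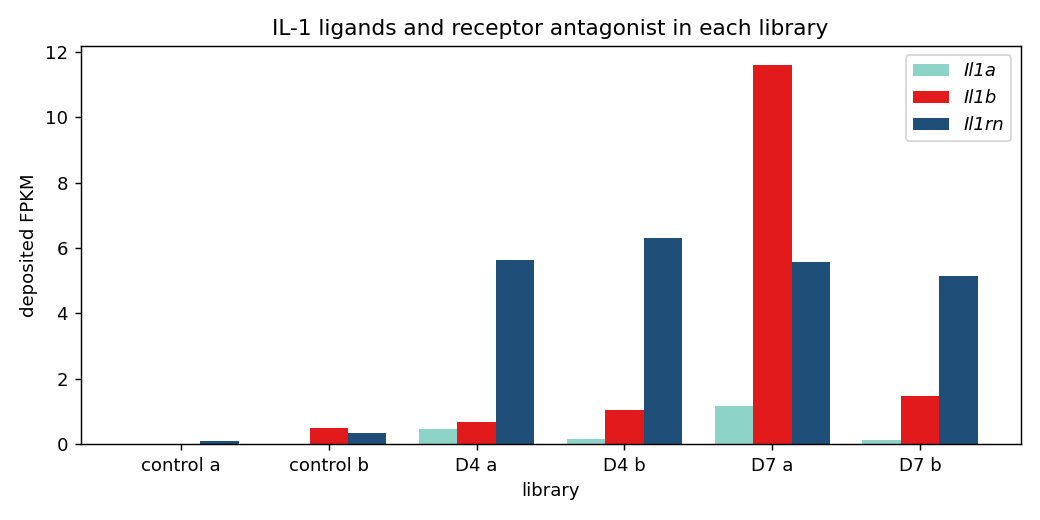
Deposited FPKM (linear axis from 0) of the ligands Il1a and Il1b and the antagonist Il1rn in each of the 6 libraries. Il1rn is the tallest bar in D4 a, D4 b and D7 b, and Il1b is the tallest in D7 a at 11.6 FPKM.

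The gap between the D7 libraries was set beside that of all tested genes. Il1b was 7.91-fold higher in D7 a than in D7 b (95% counting interval 5.66 to 11.3) and Il1a 9.73-fold (3.52 to 37.4). On the log2 CPM scale these differences of 2.92 and 2.79 were the 8th and 11th highest of 15195 genes. The median absolute difference between the D7 libraries was 0.182 and the 95th percentile 1.17. Il1b also differed between control a and control b, by -3.24 (0 and 13 counts), the 37th lowest in control. Ptgs2 was 2.72-fold higher in D7 a than in D7 b (2.05 to 3.65), the 93rd highest of the D7 differences. Il1rn, Tnf and Arg1 differed between the D7 libraries by 0.141, -0.454 and -0.433 on the log2 scale. Among all genes, gaps of at least 4-fold ran mostly the other way, with 35 genes higher in D7 a and 259 higher in D7 b. The part in these gaps of the low red blood cell and adipocyte markers of D7 a was not tested.

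**Figure D4:**
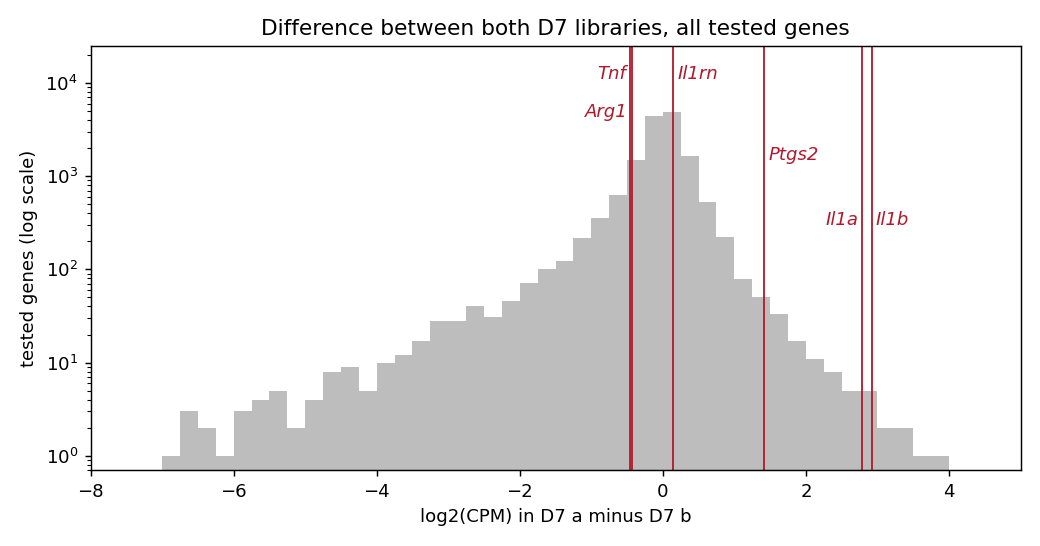
Histogram over the 15195 tested genes of log2 CPM in D7 a minus D7 b (bins of 0.25; the y axis, number of genes, is a log scale), with a line at each of the 6 tested members. Il1b and Il1a lie at 2.92 and 2.79, in the upper tail, and Il1rn lies at 0.141 near the centre.

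Tnf was counted on 2 rows of that name, at 20:4855829-4858447 and 20:5189390-5192000, and reads may have been split between these annotated copies, so its values are uncertain. The tested row (ENSRNOG00000000837, at the lower coordinates) had 16 and 20 counts in control, 28 and 27 in D4, then 11 and 15 in D7. The other row (ENSRNOG00000055156) had 2 and 5, 6 and 12, and 0 and 3 counts in the same order. In CPM the tested row was at 1.01 ± 0.27 in control, 1.07 ± 0.107 on D4 and 0.629 ± 0.16 on D7 (SD, n = 2 each). The groups control and D4 overlapped, and both D7 libraries lay below every other library. The log2 fold change was 0.09 on D4 (interval -0.92 to 1.09, edgeR adjusted p = 0.881) and -0.68 on D7 (interval -1.75 to 0.39, edgeR adjusted p = 0.261). D7 against D4 gave -0.77 (interval -1.80 to 0.27, edgeR adjusted p = 0.327), and with both rows summed, a choice made after the data were seen, it gave -1.01 (SE 0.45, edgeR adjusted p = 0.234). At these counts a fold change within those intervals could not be resolved.

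Arg1 (ENSRNOG00000013304, 1:21525421-21537863) had 17 and 25 counts in control, 146 and 49 in D4, then 19 and 25 in D7. Both D4 libraries lay above the other 4, and control and D7 overlapped. In CPM the level was 0.876 and 1.51 in control, 5.99 and 1.81 in D4, then 0.892 and 1.24 in D7, with D4 a 3.31-fold above D4 b (95% counting interval 2.38 to 4.67). The log2 fold change on D4 was 1.71 (SE 0.64, interval 0.15 to 3.27, edgeR adjusted p = 0.0727), which was not called. On D7 it was -0.15 (interval -1.81 to 1.51, edgeR adjusted p = 0.876), and D7 against D4 gave -1.87 (SE 0.64, interval -3.42 to -0.31, edgeR adjusted p = 0.146). Without D4 a the D4 value was 0.61 (SE 0.56, edgeR adjusted p = 0.458) and D7 against D4 gave -0.76 (SE 0.55, edgeR adjusted p = 0.605), so the size of both differences rested on D4 a. Without D4 b the D4 value was 2.33 (SE 0.48, edgeR adjusted p = 0.0264) and was called, while DESeq2 also called it (1.74, adjusted p = 0.04). The skeletal muscle markers were high in D4 a as well (81.6 against 6.87 CPM in D4 b, with Acta1 at 26.7 against 1.26). Their sums were 20.5 and 50.8 CPM in control a and b, and 8.08 and 21.9 in D7 a and b. The part of these markers in the Arg1 value was not tested.

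Nos2, the enzyme that competes with arginase for arginine, was not analysed here under that name. A row named LOC497963 (ENSRNOG00000057443, 10:66189786-66313190), which the file describes as similar to an inducible nitric oxide synthase, was singled out after its values were seen. It had 4 and 0 counts in control, 1 and 4 in D4, then 43 and 0 in D7, and it was too low to test. All 43 of the D7 counts came from D7 a. Il10 (13:47739526-47743392) had 0 and 1 counts in control, 4 and 3 in D4, then 3 and 0 in D7, so its mRNA was at or near the detection limit in every group and no change could be resolved.

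Ptgs2 (ENSRNOG00000002525, 13:67351087-67359335) had 102 and 122 counts in control, 168 and 88 in D4, then 192 and 67 in D7. Each injured group held 1 library above and 1 below the control mean of 6.3 CPM, with 6.9 and 3.25 CPM on D4 and 9.02 and 3.32 CPM on D7. The library a to library b ratio was 2.12 on D4 (95% counting interval 1.63 to 2.78) and 2.72 on D7. The log2 fold change was -0.31 on D4 (interval -1.67 to 1.04, edgeR adjusted p = 0.673) and -0.03 on D7 (interval -1.38 to 1.33, edgeR adjusted p = 0.974). D7 against D4 gave 0.29 (interval -1.06 to 1.63, edgeR adjusted p = 0.796). Cyclooxygenase 2 mRNA thus differed more within the injured groups than between the group means, and its direction turned when single libraries were left out.

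S100a8 (2:190073815-190074354) had 2 and 1 counts in control, 1 and 6 in D4, then 6 and 8 in D7. S100a9 (2:190097554-190100276) had 4 and 0 counts in control, 0 in both D4 libraries, and 10 and 2 on D7. Neither gene passed the low-count filter, and no library held more than 10 counts of either. On D7 both S100a8 counts were at or above every other library. The mean CPM of S100a9 on D7 was 2.43-fold a floor of 3 counts per D4 library. This fold leaves out counting error and rested on the 10 counts of D7 a, since the 2 counts of D7 b lay under the floor. In D7 a S100a9 was 4.74-fold above D7 b, with a counting interval of 1.01 to 44.5.

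The counts in the lists that follow stand beside 11.2% of all tested genes called higher and 10.7% called lower on D4, and 9.83% higher and 9.02% lower on D7. The neutrophil marker list, whose cells carry calprotectin, held 17 rows, of which 5 were tested and 6 (Camp, Cd177, Ctsg, Defa5, Elane and Np4) were at 0 in every library. Its summed level was 62.9 and 73.9 CPM in control, 46.2 and 29.7 in D4, then 40 and 46.1 in D7, so it was highest in control. On D4, 1 of the 5 was called higher and 1 lower, and on D7, 2 (Csf3r and Mmp8) were called higher. Csf3r, the G-CSF receptor, which monocytes also express, rose from 2.47 and 3.62 CPM in control to 18.8 and 17.5 on D4 and 16.1 and 15 on D7. Mpo, a granule peroxidase, was at 47.8 and 51.5 CPM in control, 8 and 5.43 in D4, then 0.047 and 14.6 in D7, and was not called. It made up most of the control sums, and without it the list was lowest in both control libraries. Of the macrophage and monocyte genes, 14 of 15 were called higher on D4 and 13 of 15 on D7. Lyz2 was at 201 and 205 CPM in control, 971 in both D4 libraries, and 780 and 812 on D7. The part of the rise of these markers in the Il1rn, Il1b and Il1a values was not tested.

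**Figure D5:**
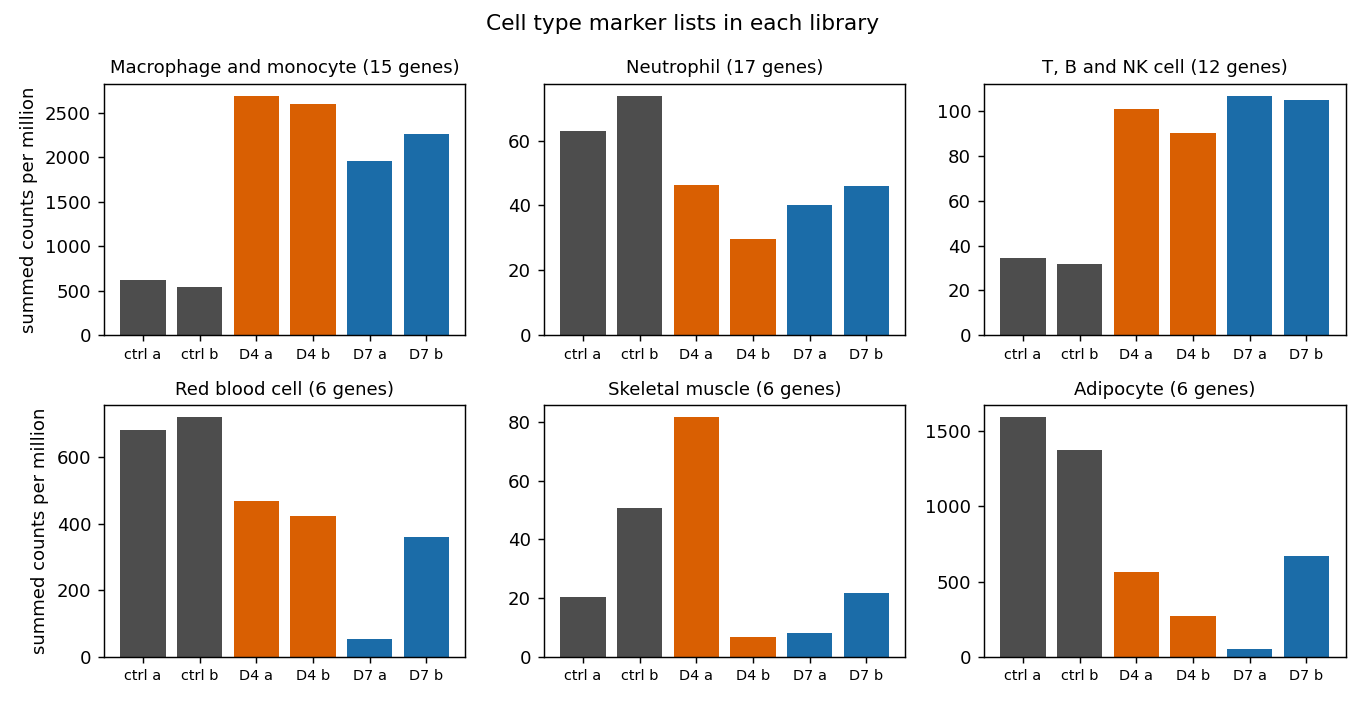
Summed CPM of 6 cell type marker lists (linear axes from 0) in each library, with the number of genes in each list; ctrl is control. Macrophage and monocyte markers sit at 540 to 618 in control and at 1950 to 2690 after crush, and the red blood cell and adipocyte bars of D7 a, at 53.1 and 52.7, are the lowest of their panels.

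The other cell type lists gave lymphocyte markers (T, B and NK cell) at 31.7 to 34.3 CPM in control, 90.4 to 101 on D4 and 105 to 107 on D7, with 5 of 8 tested genes called higher on D4 and 6 on D7. Cd4, which rat macrophages also express, made up most of these sums, at 31.7 and 28.3 CPM in control, 93.7 and 83.8 in D4, then 84.1 and 82.8 in D7. Without it the list summed to 2.52 and 3.38 CPM in control, 7.63 and 6.58 in D4, then 22.7 and 22.4 in D7. Cd3g, a subunit of the T cell receptor complex, was called lower on D4 (-2.59, SE 0.43, edgeR adjusted p = 0.00468), and it and Cd4 were singled out after their values were seen. Mast cell markers ranged from 55.3 CPM in D7 a to 134 in D4 a, with 1 of 8 called higher on D4 and 3 called lower on D7. Schwann cell markers fell in 7 of 11 genes on D4 and in 4 on D7, and Ngfr rose on both days. Of the fibroblast markers, 1 of 8 was called lower on D4 and 4 on D7, and Thy1 rose on both days. Endothelial markers were called lower in 3 of 5 genes on D4 and in 5 on D7. Keratinocyte markers did not exceed 5.15 CPM in sum, with Ivl and Sprr1b at 0 in every library.

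By length, the order of the members changed with the group. In control Ptgs2 was highest in both libraries, at 1.04 and 1.49 FPKM, ahead of Arg1 at 0.504 and 0.89 and the tested Tnf row at 0.422 and 0.632, and the last 2 overlapped. On D4 Il1rn led in both libraries. Arg1 followed at 4.26 and 1.29 FPKM and overlapped with Ptgs2 at 1.68 and 0.794, and Ptgs2 overlapped with Il1b. On D7 Il1b (11.6 and 1.49) and Il1rn (5.58 and 5.13) overlapped at the top. Ptgs2 at 2.19 and 0.818 overlapped with Il1b. Below Il1b and Il1rn, Il1a, S100a8, Arg1 and S100a9 overlapped with Ptgs2 and reached down to 0.121 FPKM. Tnf was at 0.326 and 0.475 and Il10 at 0.22 and 0.

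The receptors and enzymes around these ligands were read from lists of related genes, beside all-gene median log2 fold changes of -0.0353 on D4, 0.0121 on D7 and 0.0115 between the days. In the IL-1 receptor and processing list, 3 of 20 tested genes were called higher on D4 and 4 on D7, none lower, with medians of 0.55 and 0.45. Pycard, the inflammasome adaptor, had log2 fold changes of 2.26 on D4 (SE 0.25, edgeR adjusted p = 0.00112) and 1.56 on D7 (SE 0.26, edgeR adjusted p = 0.0058). Il1r2, the decoy receptor that binds IL-1 without signalling, was at 0.258 and 0.181 CPM in control, 0.328 and 0.222 in D4, then 1.6 and 0.891 in D7. It was called on D7 (2.46, SE 0.57, edgeR adjusted p = 0.0191), and D7 against D4 gave 2.16 (edgeR adjusted p = 0.0761). The inflammasome sensor Nlrp3 and the cytokine Il18 made up the rest of the genes called on both days.

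In the TNF list, 2 of 13 tested genes were called higher on each day, none lower, with medians of 0.39 and 0.42. Tnfrsf1b, a TNF receptor, had a log2 fold change of 1.48 on D4 (SE 0.16, edgeR adjusted p = 0.000998). Adam17, the protease that releases TNF from the membrane, was at 124 and 149 CPM in control, 159 and 152 in D4, then 385 and 305 in D7, with a log2 fold change of 1.34 on D7 (SE 0.15, edgeR adjusted p = 0.00152). In the NF-kB list, 2 of 13 genes were called higher on each day, none lower, with medians of 0.50 and 0.44, and these were the inhibitor Nfkbie (1.66 and 1.35) and Bcl3 (1.66 and 1.89).

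The IL-10 receptor and signalling list had 5 of 8 genes called higher on each day, with medians of 1.64 and 1.29, while the ligand was barely detected. Socs3, an inhibitor of cytokine signalling, rose by a log2 fold change of 2.61 on D4 (SE 0.26, edgeR adjusted p = 0.000759) and 2.73 on D7 (SE 0.27, edgeR adjusted p = 0.000985). Hmox1, heme oxygenase 1, rose by 2.39 and 1.36, and Bcl3 belongs to this list as well as to the NF-kB list. Among arginine, nitric oxide and polyamine enzymes, 2 of 16 genes were called lower on each day and 1 higher on D7, with medians of -0.37 and -0.56. Nos1, the neuronal nitric oxide synthase, was at 19.8 and 38.9 CPM in control, 1.6 and 4.62 in D4, then 0.376 and 2.67 in D7 (log2 fold changes -3.23 and -4.28). Slc7a2, an arginine transporter, had values of -1.60 and -1.55, and Srm, spermidine synthase, was called on D7 (1.66, SE 0.52, edgeR adjusted p = 0.0481).

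Of 20 prostaglandin genes, 2 were called higher and 4 lower on D4, and 2 higher and 3 lower on D7, with medians of -0.11 and -0.21. The prostaglandin E2 receptor Ptger2 (log2 fold changes 2.84 and 1.80) and thromboxane synthase Tbxas1 (2.29 and 1.94) rose, while the prostaglandin D synthase Ptgds (-3.98 and -3.85) and the thromboxane receptor Tbxa2r (-1.70 and -2.09) fell. Of 6 tested receptors of S100a8 and S100a9, 2 were called higher on D4 and 1 on D7, with medians of 0.03 and -0.18. These were Cd33 on both days (3.44 and 3.06) and Cd14, the endotoxin co-receptor, on D4 (1.76, SE 0.31, edgeR adjusted p = 0.0056).

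The classical activation list had 7 of 13 tested genes called higher and 1 lower on D4, and 4 higher on D7, with medians of 1.43 and 1.07. The alternative activation list had 8 of 15 called higher and 1 lower on D4, and 5 higher on D7, with medians of 1.33 and 0.41. Ccl2, a monocyte chemoattractant of the first list, was at 1.18 and 1.09 CPM in control, 44.7 and 62.5 in D4, then 12.5 and 21.5 in D7. The co-stimulatory molecule Cd86 had log2 fold changes of 2.89 and 3.29, and the cytokine subunit Il23a was called lower on D4 (-1.55, SE 0.48, edgeR adjusted p = 0.0416). Gpnmb, a glycoprotein of phagocytes, had values of 5.26 and 5.33, with 1220 and 396 CPM in D4 a and b. The lipid receptor Trem2 had 2.81 and 2.80. From D4 to D7 Gpnmb and Trem2 changed by 0.06 and -0.01. Egr2 was called lower on D4 (-3.36, SE 0.48, edgeR adjusted p = 0.00258), and this gene is also a myelination factor of Schwann cells and stands in the Schwann cell list. Genes of both lists rose on the same days. From D4 to D7 the medians were -0.19 in the classical and -0.56 in the alternative list, with 1 and 0 genes called lower. No test set 1 list against the other.

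The genes whose level over the 6 libraries was most like that of Il1rn were Hist1h2ac, Sephs2 and Fam60a, with Pearson correlations of log2 CPM of 0.9997, 0.9996 and 0.9992. For Il1b they were Heatr6, Dnajc3 and Supt20, at 0.9881, 0.9864 and 0.9858. With 6 libraries in 3 groups these values describe a shared pattern only. Of the lncRNA transcripts within 10 kb of a member, 2 were found: NONRATT018585.2 inside Il1a (3:121828974-121829665), with 0 and 1, 6 and 1, and 8 and 4 counts in control, D4 and D7, and NONRATT008294.2 overlapping Ptgs2 (13:67358262-67359342), with 1 and 1, 3 and 9, and 1 and 1. Both were too low to test, where 10.1%, 5.79% and 0.249% of 14077 tested lncRNAs were called on D4, on D7 and between the days. Since strand use in counting was not stated, their reads and those of the genes they overlap cannot be told apart.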

How the data were processed

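Sciatic nerve RNA was sequenced from 6 rats (2 per group). The authors mapped reads with HISAT2 2.0.4 to Rnor 6.0, assembled transcripts with StringTie 1.3.0 and deposited raw fragment counts per gene and per lncRNA transcript, with FPKM values computed from each library's total. Whether strand was used in counting was not stated. Counts were tested with edgeR 4.0.16 in R 4.3.3 (low-count filter by group, TMM scaling, quasi-likelihood model, all 6 libraries in 1 fit, Benjamini-Hochberg adjustment over all genes tested; DESeq2 1.42.0 as an alternative). Standard errors are the absolute log2 fold change over the square root of F. Deposited FPKM served for levels between genes. Each SD covers 2 rats, and counting intervals cover counting error alone.

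The members and all lists were chosen with earlier results of these data known. From each list, up to 2 rises and 2 falls called with both libraries beyond both controls are named, and the 3 genes most correlated with each called member at a mean FPKM of at least 1. Simulated 4-fold changes were recovered for 85 of 100 genes on D4 and 81 on D7 among 15195 genes, with 9 and 6 false calls. The changed genes were drawn at random from all tested genes, so these shares need not hold at the low counts of most members.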

Additional observations from a re-analysis of the deposited data

Results flagged for a closer look

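Among the lists of related genes, the effect of crush differed between the days for 3 of the genes named, by edgeR's quasi-likelihood contrast of D7 with D4. Adam17 was higher on D7 by a log2 fold change of 1.15 (SE 0.15, edgeR adjusted p = 0.0215), with both D7 libraries above both D4 libraries. Ccl2 was lower on D7 by a log2 fold change of -1.66 (SE 0.29, edgeR adjusted p = 0.0373), with both D7 libraries below both D4 libraries. Cd3g, at 5 counts in each D4 library, was higher on D7 by a log2 fold change of 2.81 (SE 0.42, edgeR adjusted p = 0.0295), with both D7 libraries above both D4 libraries. With 2 libraries a group, no single library could be tested for standing apart. All 3 calls were lost when D4 a, D4 b or D7 a was left out. With 1 D4 library left, the fit lost every call between the days, so that loss is not particular to these genes. With D4 a, D4 b and D7 a left out in turn, Adam17 had log2 fold changes of 1.18, 1.12 and 0.97. Ccl2 had -1.88, -1.39 and -1.32. Cd3g had 2.88, 2.73 and 2.84, and its call was also lost without D7 b (2.77).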

How the results depend on the processing

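Il1rn was called on both days in each alternative that tested it (log2 fold changes 3.86 to 5.44 on D4 and 3.69 to 5.28 on D7 with single libraries left out); it was not tested with at least 10 counts in every library. Of 225 alternative fold changes of members, 193 kept their direction and their call, 7 lost the call, 12 gained it and 13 turned direction. Members called on D4 numbered 2 without scaling factors, 3 with DESeq2, 0 with at least 10 counts in every library, and 1 to 2 with single libraries left out. On D7 they numbered 0 with at least 10 counts, 1 with only the 2 groups compared, and 1 to 3 with single libraries left out; DESeq2 called Il1a and Il1rn. Il1b on D7 lost its call with DESeq2 (4.46, adjusted p = 0.0633) and in the fit of 2 groups (4.51, edgeR adjusted p = 0.0828), and ranged from 2.38 to 10.6 with single libraries left out, the highest being against control a alone, at 0 counts. Without the fold threshold 6715, 5705 and 710 genes passed on D4, on D7 and between the days, and DESeq2 called 509 between the days. With single libraries left out that last count ran from 0 (without D4 a or D4 b) to 469, and was 99 without D7 a. Without scaling factors the shares called higher were 69.3% on D4 and 70.4% on D7, against 51.2% and 52.1%, and the all-gene median fold change (log2) was 0.25 and 0.31. Tnf on D4, Arg1 on D7, Il1a between the days and Ptgs2 in all 3 comparisons turned direction in some alternatives. Without scaling factors Arg1 was 0.14 and Ptgs2 0.26 on D7, and Ptgs2 was 0.01 on D7 with at least 10 counts. With single libraries left out, Tnf ran from -0.17 to 0.38 on D4, Arg1 from -0.5 to 0.28 on D7, Il1a from -1.36 to 2.02 between the days, and Ptgs2 from -0.95 to 0.13 on D4, -0.89 to 0.52 on D7 and -0.62 to 0.92 between the days. The cause of these changes was not tested.

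The letters a and b are not stated to pair rats. Deviations of same-letter libraries correlated at 0.0103 (control and D4), 0.195 (control and D7) and -0.134 (D4 and D7). With 2 libraries a group these values cannot decide whether the letter marks a pair. The main fit did not use the letter. With it as a replicate block, 2 members (Il1a and Il1rn) were called on each day, and 248 genes between the days. The crossed pairing of D4 and D7, added after the data were seen, gave 334 genes and 0 members.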

Other observations

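Some other immune genes shared the gap between the D7 libraries, and they were picked after their values were seen. Irg1, which encodes the itaconate-producing enzyme of activated macrophages, had 0 counts in both control libraries, 20 and 34 in D4, then 47 and 2 in D7, a difference of 3.58 on the log2 CPM scale that ranked just below the largest of all tested genes. Cxcl3, a neutrophil-attracting chemokine, had 0 counts in both control libraries, 0 and 15 in D4, then 14 and 0 in D7 (3.01). The largest gap was that of RT1-CE6 (29 and 0 counts in D7 a and b), and Gng7 (194 and 16) and Gabra3 (28 and 1) ranked right after Irg1. The actin-bundling gene Pls3 had 2653 and 654 counts in control, 2870 and 2861 in D4, then 1928 and 301 in D7. Gaps of this kind were thus not limited to immune genes.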
